A study of Mus musculus with 48 samples.

Results

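The thoracic aorta of untreated male (MaCon) and untreated female (FeCon) mice was compared by RNA sequencing, using 20 of the 48 libraries of the series, 10 from each group. Members were chosen by their group label alone. Both groups were wild-type C57BL/6J mice that entered the experiment at 3 weeks of age and received normal drinking water for 28 days, and each library came from 1 mouse. The other 28 libraries came from mice of the same strain and starting age given 0.4% β-aminopropionitrile (BAPN), an inhibitor of collagen and elastin cross-linking, in their water for the same 28 days. Of these, 12 had no aortic lesion (4 MaNonAD and 8 FeNonAD) and 16 had a dissection or other lesion (7 MaAAD and 9 FeAAD). The tissue sampled was the ascending aorta, the arch and the proximal descending aorta, flushed with saline through the left ventricle and snap-frozen. Males and females were kept in separate cages of the same room, the controls of each sex being spread over more than a single cage, and faeces were taken from every mouse during a morning window just before death, with cages and sexes in random order. The labels give neither a cage nor an hour of death for any mouse. Sex and cage therefore cannot be told apart in this comparison, and the part of the hour of death was not tested. Genes of the X and Y chromosomes were left out of every result.

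The wall of the thoracic aorta is built from layers of smooth muscle cells between elastic sheets, lined by endothelium and wrapped in an adventitia of fibroblasts, resident macrophages, nerves and fat. Besides its contractile and matrix genes, the tissue carries a circadian clock, in which the activators ARNTL (BMAL1), CLOCK and NPAS2 switch on their own repressors, the PER, CRY, CIART and BHLHE proteins, through E-box sequences. The REV-ERB proteins NR1D1 and NR1D2 in turn hold down Arntl and Npas2, so that activators and repressors peak at opposite times of day. Vascular cells also answer stress quickly: heat shock factor raises chaperones, glucocorticoids raise Fkbp5 and the metallothioneins, and immediate early genes such as Junb and the Nr4a receptors rise within minutes of stimulation.

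Library totals were similar, from 14193311 to 16314527 counts in MaCon and from 13548015 to 16078208 in FeCon. No control library went against its sex label in 4 Y-linked genes, no pair of control libraries was identical, and Pearson correlations between control libraries on log2(CPM + 1) of autosomal genes ran from 0.952 to 0.992 (CPM, counts scaled to a common library total). The 9 smooth muscle identity genes summed to 34158 to 57534 CPM in FeCon and to 31542 to 66439 CPM in MaCon, and none of them was at 0. Markers of neighbouring tissue were high in single libraries: 16 heart muscle genes summed to 777 CPM in FeCon10 and 344 CPM in MaCon6 against medians of 85.8 CPM in FeCon and 67.4 CPM in MaCon, and 16 T-cell genes summed to 399.6 CPM in MaCon2 against a MaCon median of 26.1 CPM. FeCon2 and MaCon5 stood apart from their groups in several clock genes, as described with those genes. Clock gene levels also varied among the other libraries of each group. The clock output gene Dbp was 4.13 to 6.09 CPM in MaCon4, MaCon6, MaCon7 and MaCon8, and 57.6 to 448 CPM in the other MaCon libraries. FeCon3, with Arntl at 1.94 CPM and Dbp at 522 CPM, lay near MaCon5, at 1.54 and 448 CPM. In bulk tissue, fewer cells of a type and less RNA per cell cannot be told apart.

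Of 12797 autosomal genes tested with edgeR's quasi-likelihood test, 149 were differentially expressed genes (DEGs), defined by a Benjamini-Hochberg adjusted p below 0.05 and an absolute log2 difference of at least 1. These were 1.16% of the genes tested. MaCon was higher for 57 (0.445%) and FeCon for 92 (0.719%). All log2 differences are given as MaCon minus FeCon, so a negative value means a higher level in FeCon. Adjusted p alone called 1791 genes (14.0%), 819 higher in MaCon (6.4%) and 972 higher in FeCon (7.6%), with a median absolute log2 difference of 0.46. With library size alone in place of the scaling factors, the split turned to 904 higher in MaCon and 695 higher in FeCon, while the median difference of all autosomal genes was 0.01 with the factors and 0.04 without them. The sexes accounted for 17.3% of the Bray–Curtis distances between the 20 libraries (exact permutation test over 184756 splits, p = 0.000888). Complete separation was rare: in 14 genes (0.109%) no library of either group overlapped the other.

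Many genes of the circadian clock stood at different levels in the groups, with 5 of 8 E-box repressors higher in FeCon and the activator Npas2 higher in MaCon. Of 19 clock genes tested, 8 were DEGs higher in FeCon (background 0.719%) and 1, Npas2, was a DEG higher in MaCon (background 0.445%). Their median log2 difference was -1.03, beside 0.01 for all autosomal genes. The E-box, CACGTG, was found on either strand within 250 bases before the start of 5 of the 16 clock genes with a RefSeq promoter sequence (31.2%). Over all 10174 autosomal genes with such a sequence the share was 9.77%, in DEGs higher in FeCon 17.6% (12 of 68) and in DEGs higher in MaCon 9.76% (4 of 41). Per1, Bhlhe41 and Tef are counted both in the 5 and in the 12, so these shares are not independent. The 5 also include Cry1, a repressor with a log2 difference of 0.04 (adjusted p = 0.939). The windows of 3 other repressors, of which Bhlhe41 and Per1 were DEGs and Ciart was not (adjusted p = 0.0786), are shown as examples of where the element lies, with CACGTG in capitals (RefSeq, GRCm38.p6; Ciart chr3:95882229-95882478, minus strand; Bhlhe41 chr6:145865421-145865670, minus strand; Per1 chr11:69098699-69098948, plus strand).
Ciart: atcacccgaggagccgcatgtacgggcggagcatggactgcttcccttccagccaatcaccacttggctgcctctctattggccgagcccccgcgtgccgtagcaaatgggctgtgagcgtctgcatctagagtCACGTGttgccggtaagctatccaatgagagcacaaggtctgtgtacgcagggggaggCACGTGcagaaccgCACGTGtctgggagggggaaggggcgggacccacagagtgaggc
Bhlhe41: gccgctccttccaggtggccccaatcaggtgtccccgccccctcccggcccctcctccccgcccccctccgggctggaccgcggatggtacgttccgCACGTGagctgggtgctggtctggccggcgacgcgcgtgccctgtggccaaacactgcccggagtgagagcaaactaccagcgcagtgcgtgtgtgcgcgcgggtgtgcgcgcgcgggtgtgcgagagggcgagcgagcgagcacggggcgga
Per1: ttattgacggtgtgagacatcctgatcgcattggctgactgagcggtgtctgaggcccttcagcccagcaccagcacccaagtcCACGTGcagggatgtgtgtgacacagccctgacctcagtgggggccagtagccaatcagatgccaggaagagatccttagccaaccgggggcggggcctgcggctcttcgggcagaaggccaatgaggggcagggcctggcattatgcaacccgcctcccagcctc
The Ciart window holds 3 copies and the other windows 1 each.

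In the repressor arm, Bhlhe40, which encodes an E-box competitor, ranged from 36.5 to 94.0 CPM (median 73.3) in FeCon and from 19.2 to 53.2 CPM (median 30.8) in MaCon (log2 difference -1.17, SE 0.18, adjusted p = 0.000495). In 9 of 10 FeCon libraries it lay above the highest MaCon library, and FeCon2 was the exception at 36.5 CPM. Its paralogue Bhlhe41 ranged from 18.8 to 89.6 CPM (median 68.2) in FeCon and from 9.58 to 50.8 CPM (median 20.0) in MaCon (log2 difference -1.51, SE 0.32, adjusted p = 0.00492). The cryptochrome gene Cry2 ranged from 68.9 to 182 CPM (median 124) in FeCon and from 33.6 to 85.3 CPM (median 60.2) in MaCon (log2 difference -1.09, SE 0.19, adjusted p = 0.00133), whereas Cry1 ranged from 7.20 to 20.0 CPM (median 13.9) in FeCon and from 5.79 to 22.9 CPM (median 14.5) in MaCon, with a log2 difference of 0.04 (adjusted p = 0.939). Per2 ranged from 59.6 to 289.6 CPM (median 184) in FeCon and from 42.9 to 203 CPM (median 67.9) in MaCon (log2 difference -1.10, SE 0.29, adjusted p = 0.0171). Per1 had a log2 difference of -1.03 (adjusted p = 0.0467) and Per3 one of -0.85 (adjusted p = 0.214). Ciart, whose window above holds the most E-boxes, ranged from 1.49 to 35.3 CPM (median 24.1) in FeCon and from 0.876 to 46.6 CPM (median 2.71) in MaCon, a log2 difference of -1.64 that missed the threshold (adjusted p = 0.0786). Its groups crossed through 1 library each: FeCon2, at 1.49 CPM, lay among the MaCon libraries, and MaCon5, at 46.6 CPM, above all FeCon libraries. Without FeCon2 the adjusted p for Ciart was 0.0414. Without MaCon5 the log2 differences of Ciart and Per3 were -3.05 and -1.45 (adjusted p = 0.000139 and 0.0187).

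In the activator arm, Npas2 ranged from 4.49 to 49.2 CPM (median 13.7) in FeCon and from 3.68 to 95.0 CPM (median 58.9) in MaCon (log2 difference 1.40, SE 0.46, adjusted p = 0.0471). Arntl ranged from 1.94 to 40.4 CPM (median 24.6) in FeCon and from 1.54 to 62.0 CPM (median 37.0) in MaCon (log2 difference 0.69, adjusted p = 0.331), and Clock had a log2 difference of 0.13 (adjusted p = 0.684). The lowest MaCon value of all 3 genes was in MaCon5. Of the nuclear receptors that act on Arntl, Nr1d1 ranged from 401 to 1133 CPM (median 664) in FeCon and from 48.1 to 549 CPM (median 358) in MaCon (log2 difference -1.27, SE 0.38, adjusted p = 0.0297). Nr1d2 followed with a log2 difference of -1.11 (adjusted p = 0.0162). The value for Rora (-0.11, adjusted p = 0.701) did not pass, and neither did that for Nfil3 (1.18, adjusted p = 0.171), which was listed with them but is not a nuclear receptor. Of the output factors, Tef passed (log2 difference -1.20, SE 0.34, adjusted p = 0.0253). Dbp ranged from 32.2 to 522 CPM (median 294) in FeCon and from 4.13 to 448 CPM (median 64.1) in MaCon, and its log2 difference of -1.65 did not pass (adjusted p = 0.126); neither did that of Hlf (-0.95, adjusted p = 0.0532). Without MaCon5 both passed, Dbp at -2.52 and Hlf at -1.32 (adjusted p = 0.0244 and 0.00353). Over the 20 fits that each left out 1 library, Npas2 was called in 7 (highest adjusted p 0.0841), Per1 in 6 (0.109) and Nr1d1 in 16 (0.0564). Nr1d1 was lost without FeCon1, FeCon5, FeCon10 or MaCon8.

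**Figure D1:**
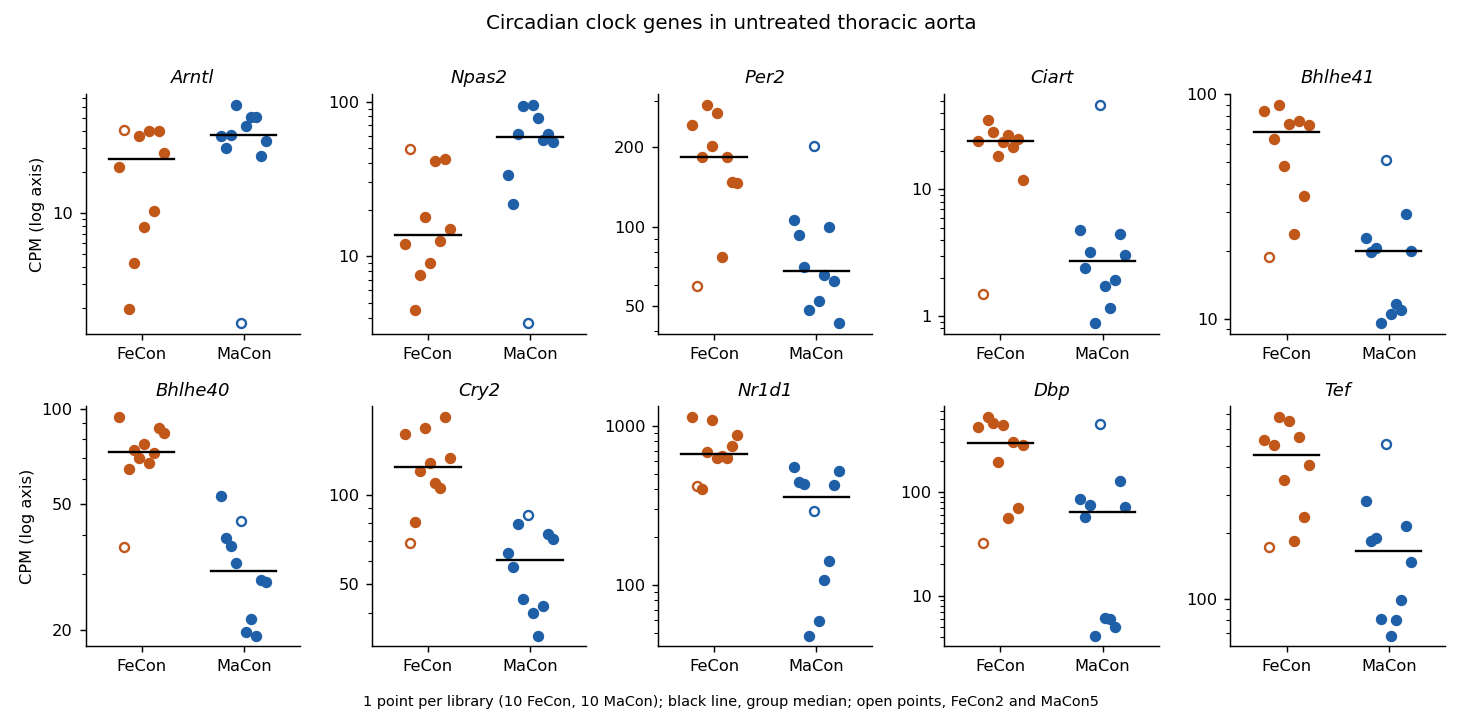
Level in CPM on log axes of 10 clock genes in 10 FeCon (orange) and 10 MaCon (blue) libraries, with 1 point per library and group medians as black lines. FeCon2 and MaCon5 are open points: FeCon2 is the lowest FeCon library for Ciart and Dbp, FeCon7 and FeCon9 being the next lowest for Dbp, and MaCon5 has the lowest Arntl and Npas2 and the highest Ciart of its group.

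FeCon2 and MaCon5, which stood apart in several clock genes, also stood apart in the DEGs. FeCon2 lay nearer to the FeCon than to the MaCon median of the other libraries for only 11 of the 92 DEGs higher in FeCon and 20 of the 57 higher in MaCon, whereas the other FeCon libraries did so for 54 to 89 and 41 to 56. FeCon7 and FeCon9 had Arntl at 40.0 and 40.1 CPM, beside 40.4 CPM in FeCon2, and Dbp at 55.7 and 70.1 CPM, beside 32.2 CPM. FeCon7 and FeCon9 lay nearer to FeCon for 62 and 78 of the 92 and for 43 and 44 of the 57. In other clock genes FeCon2 differed from them: Ciart was 1.49 CPM and Bhlhe40 36.5 CPM, beside at least 11.98 and 64.5 CPM in the other FeCon libraries. The DEGs were called from these same libraries, so such positions are not independent of that choice. The part of clock state in the position of FeCon2 was not tested. MaCon5 lay nearer to FeCon for 31 and 31, and the other MaCon libraries for 3 to 15 and 2 to 16. Without FeCon2 there were 193 DEGs, and without MaCon5 174. Because the libraries of each group differed in clock state, the comparison was repeated with the log2(CPM + 1) levels of Arntl and Dbp as covariates, an alternative added after the data had been seen. It called 8 autosomal DEGs, all 8 among the 149. The median absolute log2 difference of the 149 went from 1.23 to 0.95 and their median standard error from 0.30 to 0.33. Of the 149 genes, 148 had the same sign as before, 72 still differed by at least 1 on the log2 scale and 9 had an adjusted p below 0.05. Among those 9 were C7, Casq1 and Prmt2, higher in MaCon, and Cilp, Maff, Gal3st2, B3gnt5 and Crispld2, higher in FeCon. Arntl and Dbp did not themselves pass between the groups, and where clock state and sex move together their shares cannot be told apart.

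Mt1, Mt2 and 6 immediate early genes were higher in FeCon. Mt2, which encodes a metal-binding protein induced by zinc, glucocorticoids and oxidative stress, ranged from 54.7 to 835 CPM (median 586) in FeCon and from 35.1 to 222 CPM (median 76.9) in MaCon (log2 difference -2.58, SE 0.35, adjusted p = 0.000185). Mt1 ranged from 155 to 1538 CPM (median 988) in FeCon and from 129 to 639 CPM (median 215) in MaCon (log2 difference -1.93, SE 0.30, adjusted p = 0.000775). For both genes 9 FeCon libraries exceeded every MaCon library and FeCon2 did not. Of 19 metallothionein and zinc transporter genes tested, 2 were DEGs, both higher in FeCon, and 4 and 2 passed the adjusted p threshold higher in FeCon and MaCon (background 7.6% and 6.4%).

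Of 28 immediate early genes tested, 4 were DEGs higher in FeCon (background 0.719%) and none was a DEG higher in MaCon, 6 passed the adjusted p threshold higher in FeCon (background 7.6%) and none higher in MaCon, and 27 of 28 log2 differences were negative (median -0.40). Maff, a small basic leucine zipper factor, ranged from 24.3 to 145 CPM (median 95.0) in FeCon and from 19.5 to 37.5 CPM (median 29.9) in MaCon (log2 difference -1.65, SE 0.20, adjusted p = 5.95e-05), and FeCon2 was again the only FeCon library inside the MaCon range. Nr4a3, an orphan nuclear receptor, ranged from 11.1 to 60.0 CPM (median 32.7) in FeCon and from 4.67 to 16.9 CPM (median 10.6) in MaCon (log2 difference -1.65, SE 0.28, adjusted p = 0.00136). Its relative Nr4a2 ranged from 9.17 to 124 CPM (median 12.9) in FeCon and from 5.90 to 9.04 CPM (median 7.63) in MaCon (log2 difference -2.01, SE 0.43, adjusted p = 0.00592). The Nr4a2 groups did not overlap, but only FeCon5, FeCon7 and FeCon9, at 56.7, 41.5 and 124 CPM, stood far above the rest. The same 3 libraries were the highest of all 20 for Fkbp5, at 439, 439 and 536 CPM. Junb, named after its values were seen, was highest in FeCon7 and FeCon9, at 375 and 167 CPM (log2 difference -1.33, SE 0.37, adjusted p = 0.0224; -0.82 without FeCon7). Socs3, a brake on cytokine signalling, passed with a smaller log2 difference of -0.75 (adjusted p = 0.00694).

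Of 21 genes of the glucocorticoid and fasting response, 3 passed higher in FeCon (background 7.6%) and none higher in MaCon, and 1 of the 3 passed without FeCon10. Fkbp5, a co-chaperone of the glucocorticoid receptor that the receptor itself induces, ranged from 57.3 to 536 CPM (median 231) in FeCon and from 18.2 to 212 CPM (median 93.8) in MaCon (log2 difference -1.42, SE 0.46, adjusted p = 0.0435), and it was called in 8 of the 20 fits that left out 1 library (highest adjusted p 0.0806). Klf9, another receptor target, had a log2 difference of -0.58 (adjusted p = 0.0118), and Lcn2, which encodes lipocalin 2, one of -1.39 (adjusted p = 0.021). Crispld2, a secreted glycoprotein gene that glucocorticoids also induce, ranged from 343 to 1237 CPM (median 879) in FeCon and from 271 to 426 CPM (median 349) in MaCon (log2 difference -1.34, SE 0.17, adjusted p = 7.52e-05), and it was named after its values were seen. Among 56 xenobiotic and glutathione genes, 7 passed higher in FeCon and 1 higher in MaCon (background 7.6% and 6.4%), while 39 of the 56 differences were positive, with a median of 0.11. The 7 included Gclc, the catalytic subunit of glutathione synthesis (log2 difference -0.79, SE 0.14, adjusted p = 0.00176), Txnrd1, thioredoxin reductase (log2 difference -0.52, SE 0.08, adjusted p = 0.000808), and Hmox1, haem oxygenase. Hmox1 ranged from 12.2 to 144 CPM (median 21.5) in FeCon and from 9.56 to 18.0 CPM (median 15.9) in MaCon (log2 difference -1.41, SE 0.36, adjusted p = 0.0149), and FeCon8, at 144 CPM, was its highest library (log2 difference -0.91 without it).

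Many heat shock chaperones were higher in MaCon. Of 28 tested, 4 were DEGs higher in MaCon (background 0.445%), 17 had an adjusted p below 0.05 and were higher in MaCon (background 6.4%), and none was called higher in FeCon. The median log2 difference was 0.56. The inducible HSP70 genes Hspa1a and Hspa1b share a nearly identical coding sequence, and the authors' counts divide ambiguous reads between them, so their separate levels are uncertain. Their RefSeq windows of 250 bases before the start are shown because they hold the heat shock element pair GAANNTTC (capitals; GRCm38.p6, minus strand, Hspa1b chr17:34959239-34959488 and Hspa1a chr17:34972157-34972406).
Hspa1b: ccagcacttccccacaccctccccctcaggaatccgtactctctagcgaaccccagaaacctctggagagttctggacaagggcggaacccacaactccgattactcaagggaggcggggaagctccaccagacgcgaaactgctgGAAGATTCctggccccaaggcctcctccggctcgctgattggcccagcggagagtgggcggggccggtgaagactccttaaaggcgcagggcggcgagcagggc
Hspa1a: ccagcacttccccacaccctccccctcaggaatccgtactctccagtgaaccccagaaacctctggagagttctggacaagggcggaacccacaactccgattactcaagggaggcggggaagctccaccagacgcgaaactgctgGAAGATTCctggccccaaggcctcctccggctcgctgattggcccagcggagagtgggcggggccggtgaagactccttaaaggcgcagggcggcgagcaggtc
The windows differ at 3 of 250 bases. The pair was present in 8 of 23 chaperone windows (34.8%) and in 6.08% of all 10174 windows, searched on both strands.

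Hspa1b ranged from 66.1 to 1506 CPM (median 334) in MaCon and from 75.0 to 160.0 CPM (median 126) in FeCon (log2 difference 2.12, SE 0.49, adjusted p = 0.0087). The MaCon libraries fell apart into 5 with 465 CPM or more (MaCon2, MaCon4, MaCon6, MaCon7 and MaCon8), and 5 with 203 CPM or less, while no FeCon library exceeded 160.0 CPM. Hspa1a, in the same 5 MaCon libraries, reached 420.3 to 1337 CPM, and 189 CPM was its highest FeCon value (log2 difference 1.80, SE 0.45, adjusted p = 0.0134). With the Arntl and Dbp levels as covariates the log2 differences of Hspa1b and Hspa1a were 0.19 and -0.0039, the largest reductions among the DEGs named here. Other chaperones higher in MaCon were Ahsa2, an HSP90 activator (log2 difference 1.03, SE 0.19, adjusted p = 0.00208), Fkbp4, an HSP90 co-chaperone (log2 difference 0.56, SE 0.11, adjusted p = 0.003), Hspe1, the mitochondrial HSP10 (log2 difference 0.64, SE 0.13, adjusted p = 0.00452), and Serpinh1, the collagen chaperone HSP47 (log2 difference 0.51, SE 0.12, adjusted p = 0.00838). Serpinh1 ranged from 1192 to 1797 CPM (median 1529) in MaCon and from 816 to 1582 CPM (median 1025) in FeCon.

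Some genes of the unfolded protein response, which serves the endoplasmic reticulum, were also higher in MaCon. Of 26 tested, 6 passed higher in MaCon (background 6.4%) and none higher in FeCon, 7 differences were negative, and the median log2 difference was 0.19. Sdf2l1, an HSP70 partner in the reticulum, ranged from 7.28 to 26.7 CPM (median 13.0) in MaCon and from 3.99 to 11.9 CPM (median 7.00) in FeCon (log2 difference 1.08, SE 0.23, adjusted p = 0.00561). Creld2, an ER stress-induced protein, ranged from 26.7 to 58.6 CPM (median 37.5) in MaCon and from 13.4 to 36.0 CPM (median 21.9) in FeCon (log2 difference 0.86, SE 0.18, adjusted p = 0.00424), and Hyou1 had a log2 difference of 0.53 (adjusted p = 0.0177).

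**Figure D2:**
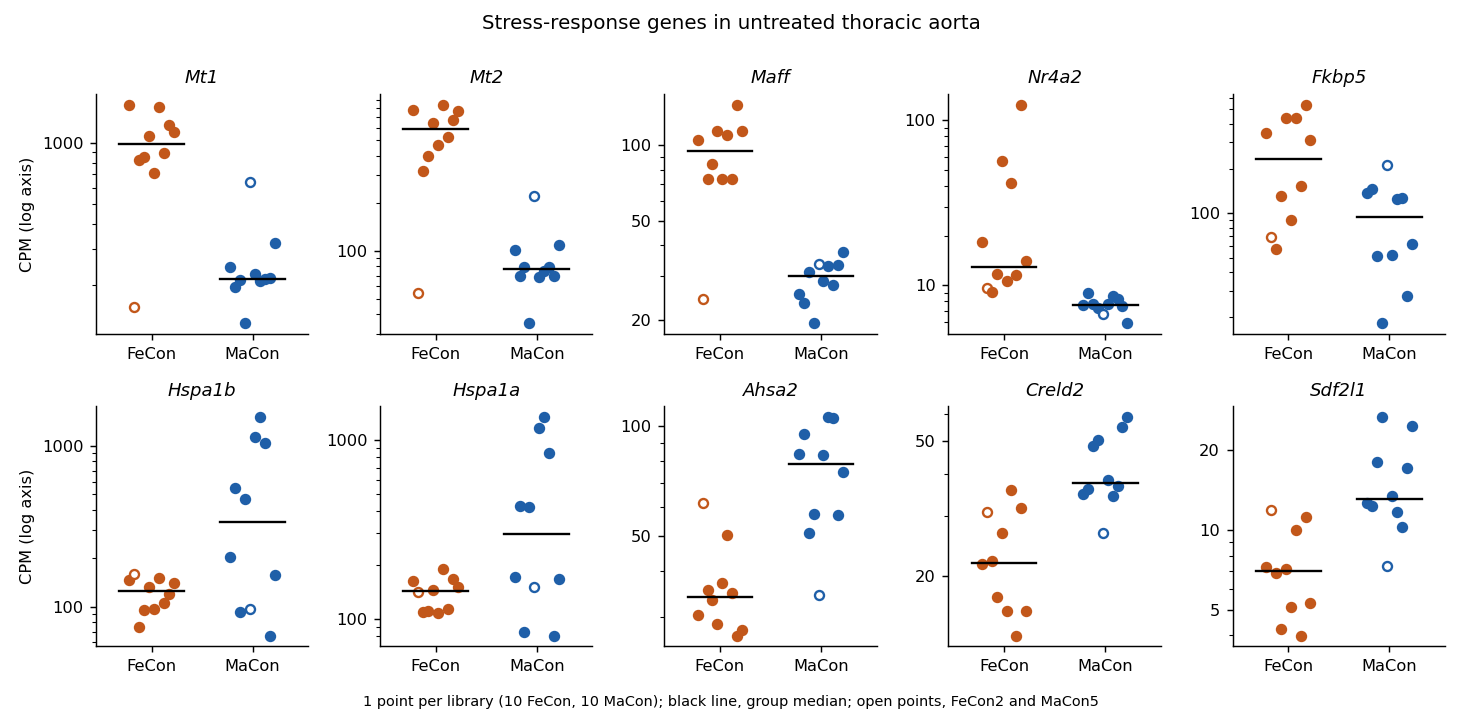
Level in CPM on log axes of 10 stress-response genes, 1 point per library, with group medians as black lines and FeCon2 and MaCon5 as open points. Mt1, Mt2 and Maff are high in 9 of 10 FeCon libraries, Nr4a2 and Fkbp5 are highest in 3 FeCon libraries, and Hspa1a and Hspa1b are high in 5 of 10 MaCon libraries.

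The 14 genes whose groups did not overlap were picked out by that pattern, and apart from C7, Txnrd1 and Nr4a2 they were named after their values were seen. C7, which encodes a component of the membrane attack complex of complement, ranged from 151 to 228 CPM (median 186) in MaCon and from 52.8 to 107 CPM (median 81.5) in FeCon. Every MaCon library lay above every FeCon library, with a log2 difference of 1.13 (SE 0.11, adjusted p = 1.07e-06), the lowest adjusted p of all autosomal genes. Its log2 difference was 1.39 with the clock covariates (adjusted p = 6.17e-09). Of 22 complement genes tested, C7 was the only one that passed higher in MaCon and 1 passed higher in FeCon (background 6.4% and 7.6%), with 10 positive and 12 negative differences.

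The other genes higher in every MaCon library were P2rx1, Unc5d, Bloc1s5, Fchsd1 and Tkfc. P2rx1, the ATP-gated cation channel through which sympathetic nerves contract arterial muscle, ranged from 18.9 to 35.0 CPM (median 23.4) in MaCon and from 11.0 to 17.6 CPM (median 15.8) in FeCon (log2 difference 0.73, SE 0.12, adjusted p = 0.00104). Unc5d, a netrin receptor, ranged from 2.37 to 4.61 CPM (median 3.05) in MaCon and from 0.892 to 2.26 CPM (median 1.55) in FeCon (log2 difference 1.05, SE 0.18, adjusted p = 0.00169). The other 3 were Bloc1s5, a subunit of a complex that builds lysosome-related organelles (0.66), Fchsd1, a membrane-bending protein (0.55), and Tkfc, triokinase (0.36). Casq1, the calsequestrin of calcium stores, came close to separation and ranged from 47.1 to 131 CPM (median 84.6) in MaCon and from 31.3 to 49.1 CPM (median 42.1) in FeCon (log2 difference 1.04, SE 0.14, adjusted p = 0.000131). It was listed here as a skeletal muscle marker. No other of the 6 tested genes of that list passed, and the list, Casq1 included, summed to 56.4 to 147.9 CPM in MaCon and to 42.7 to 100.9 CPM in FeCon. Prmt2, an arginine methyltransferase, ranged from 25.7 to 41.4 CPM (median 34.0) in MaCon and from 11.8 to 27.6 CPM (median 14.3) in FeCon (log2 difference 1.04, SE 0.15, adjusted p = 0.000282).

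Genes higher in every FeCon library were Cilp, B3gnt5, Pde1a, Txnrd1, Rrp8, Dbr1, Atrip and Nr4a2. Cilp, a matrix protein first known from cartilage that binds transforming growth factor beta, ranged from 44.7 to 77.9 CPM (median 54.1) in FeCon and from 20.8 to 37.2 CPM (median 24.5) in MaCon (log2 difference -1.08, SE 0.12, adjusted p = 5.61e-06). B3gnt5, the enzyme that begins lacto-series glycolipids, ranged from 7.47 to 15.5 CPM (median 10.2) in FeCon and from 3.20 to 6.75 CPM (median 4.82) in MaCon (log2 difference -1.14, SE 0.14, adjusted p = 5.6e-05). Pde1a, a calcium-dependent cyclic nucleotide phosphodiesterase of smooth muscle, ranged from 20.7 to 30.4 CPM (median 25.2) in FeCon and from 13.3 to 20.5 CPM (median 17.5) in MaCon (log2 difference -0.53, SE 0.10, adjusted p = 0.00224). The differences of Rrp8 (-0.43), Dbr1 (-0.37) and Atrip (-0.32), which act in ribosomal RNA processing, intron lariat turnover and the DNA damage checkpoint, were smaller than 0.5 on the log2 scale. Gal3st2, a sulfotransferase whose reads are partly shared with other genes, was nearly separate and ranged from 2.29 to 8.67 CPM (median 4.27) in FeCon and from 0.989 to 2.41 CPM (median 1.67) in MaCon (log2 difference -1.48, SE 0.21, adjusted p = 0.000258).

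**Figure D3:**
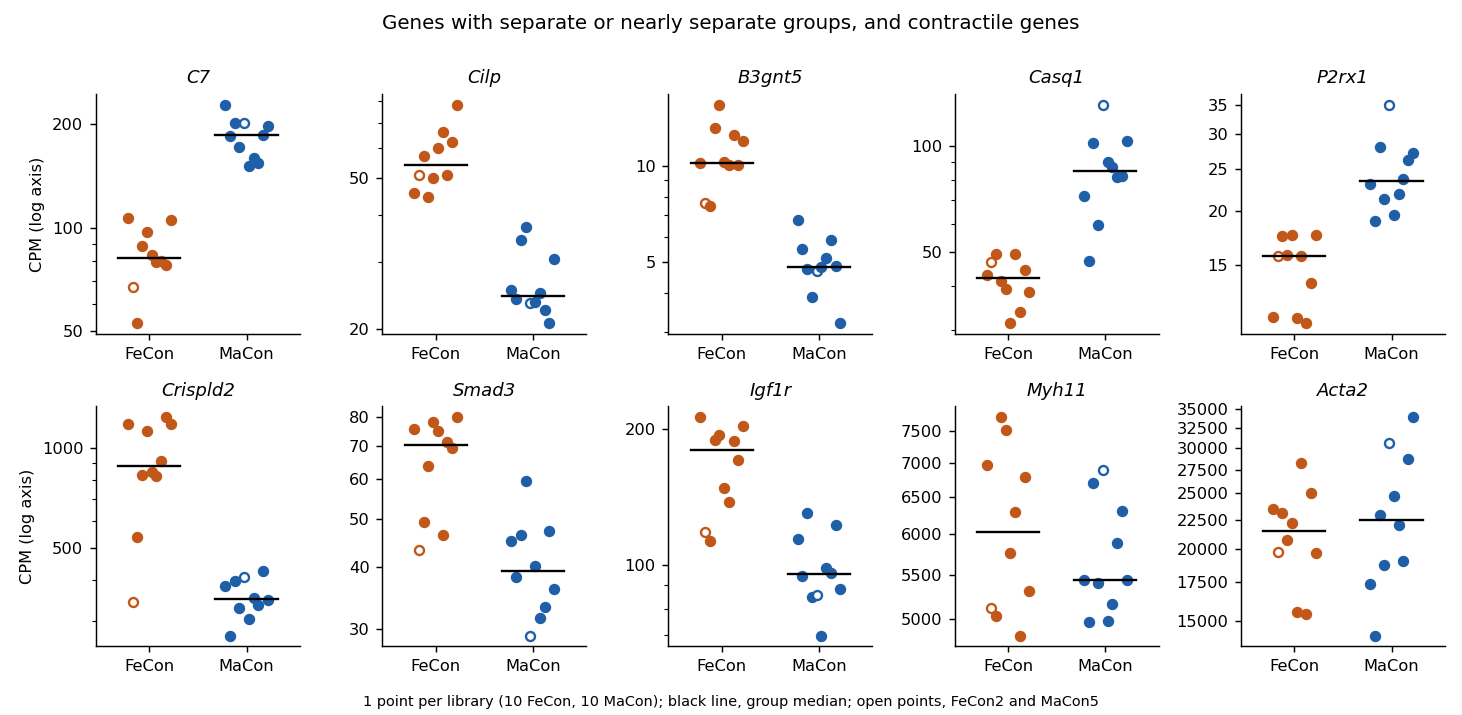
Level in CPM on log axes of 10 genes, 1 point per library, with group medians as black lines and FeCon2 and MaCon5 as open points. C7, Cilp, B3gnt5 and P2rx1 do not overlap between groups, Casq1, Crispld2, Smad3 and Igf1r overlap in a few libraries, and the contractile genes Myh11 and Acta2 overlap throughout.

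The largest remaining DEGs higher in FeCon were mostly of low level. Scin, scinderin, an actin-severing protein, ranged from 2.20 to 15.2 CPM (median 10.1) in FeCon and from 0.897 to 3.31 CPM (median 1.85) in MaCon (log2 difference -2.34, SE 0.33, adjusted p = 0.000185). Cpm, membrane carboxypeptidase M, ranged from 1.62 to 14.0 CPM (median 7.44) in FeCon and from 0.580 to 3.38 CPM (median 1.17) in MaCon (log2 difference -2.29, SE 0.35, adjusted p = 0.000462), and Vwce, a secreted protein with von Willebrand factor C domains, from 0.452 to 12.2 CPM (median 6.78) in FeCon and from 0.322 to 3.47 CPM (median 1.18) in MaCon (log2 difference -2.25, SE 0.45, adjusted p = 0.00359). FeCon2 lay within the MaCon range for all 3 genes, as did FeCon7 for Scin and Cpm, and FeCon3 and FeCon6 for Vwce. Wdr92, a dynein assembly factor, and Zbtb8b, a zinc finger protein, reached higher levels. Wdr92, whose count includes reads divided between genes, ranged from 19.4 to 299 CPM (median 191) in FeCon and from 28.5 to 67.0 CPM (median 48.7) in MaCon (log2 difference -1.98, SE 0.30, adjusted p = 0.000495). Zbtb8b ranged from 25.7 to 405 CPM (median 208) in FeCon and from 16.0 to 114 CPM (median 54.9) in MaCon (log2 difference -1.89, SE 0.37, adjusted p = 0.00343). For both genes FeCon2 was the only FeCon library below the highest MaCon library. Aipl1, a photoreceptor co-chaperone, and Nts, the peptide neurotensin, had FeCon medians below 3 CPM and log2 differences of -2.44 and -1.88. Mup22, of the major urinary protein family, had the largest difference of all (log2 difference -2.81, SE 0.48, adjusted p = 0.0015), ranging from 2.01 to 19.4 CPM (median 6.91) in FeCon and from 0 to 2.82 CPM (median 1.15) in MaCon. Members of that family are near copies, so the assignment of its reads is uncertain, and of 6 tested genes in the list of sex-biased liver genes it was the only one that passed (background 7.6%). Without the filter on low counts, 5 of the 34 listed genes in the table passed higher in FeCon, as did 1034 of the 17904 autosomal genes in the table.

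On the MaCon side, Hcar1, the lactate receptor of fat cells, ranged from 2.74 to 18.8 CPM (median 6.78) in MaCon and from 0.696 to 5.68 CPM (median 1.69) in FeCon (log2 difference 1.96, SE 0.38, adjusted p = 0.00343). Lif, an interleukin-6 family cytokine, ranged from 1.47 to 4.19 CPM (median 2.60) in MaCon and from 0.557 to 1.57 CPM (median 0.968) in FeCon (log2 difference 1.39, SE 0.22, adjusted p = 0.000693), and 9 MaCon libraries exceeded every FeCon library. Adgrb1, an adhesion G protein-coupled receptor, did so as well (log2 difference 1.40, SE 0.22, adjusted p = 0.000574). Nnat, the imprinted gene of neuronatin, ranged from 3.96 to 21.9 CPM (median 6.42) in MaCon and from 0.711 to 8.05 CPM (median 2.90) in FeCon (log2 difference 1.45, SE 0.38, adjusted p = 0.0163). Fam184b (1.79), Ppbp, a platelet chemokine (1.77), Mycl, of the MYC family (1.39), and the uncharacterised 9330159F19Rik (1.34) were the remaining genes of the 12 largest, with MaCon medians under 4 CPM. Carmil2, a regulator of actin in T cells, was 33.1 CPM in MaCon2 and at most 4.34 CPM in the other MaCon libraries (log2 difference 1.89, SE 0.60, adjusted p = 0.0403; 0.68 without MaCon2, where it was not called). MaCon2 is also the library with the high T-cell gene sum, and its part in the level of Carmil2 was not tested. Carmil2 was called in 11 of the 20 fits that left out 1 library (highest adjusted p 0.178).

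Few of the genes that make the wall contract were called, while the share called among elastic fibre and fibrillar collagen genes was near that of all genes. Of 32 smooth muscle contractile genes tested, none was a DEG and only Ramp1, a calcitonin receptor partner, passed by adjusted p (log2 difference 0.53, SE 0.16, adjusted p = 0.0287), beside a background of 6.4% and 7.6% in the directions of MaCon and FeCon. The list median was -0.01. Acta2, smooth muscle actin, ranged from 15426 to 28205 CPM (median 21458) in FeCon and from 14122 to 33922 CPM (median 22467) in MaCon (log2 difference 0.12, SE 0.14, adjusted p = 0.578). Myh11, smooth muscle myosin heavy chain, ranged from 4822 to 7731 CPM (median 6026) in FeCon and from 4965 to 6897 CPM (median 5438) in MaCon (-0.10, SE 0.10, adjusted p = 0.502), and Tagln had a log2 difference of -0.02 (SE 0.16, adjusted p = 0.942). Of 8 fibrillar collagen genes, Col27a1 alone passed (background 6.4% higher in MaCon; 0.49, adjusted p = 0.0335, and up to 0.0634 with 1 library left out). Of 25 elastic fibre and cross-linking genes, 3 passed, all higher in FeCon (background 7.6%): Loxl4 and Loxl3, lysyl oxidase relatives of the family that BAPN inhibits (-0.67 and -0.37, adjusted p = 0.00523 and 0.0345), and Tgm2, tissue transglutaminase (-0.49, adjusted p = 0.00803).

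Of 28 proteoglycan and hyaluronan genes, 6 passed higher in FeCon and 1 higher in MaCon (background 7.6% and 6.4%). Prg4, the lubricating proteoglycan lubricin, ranged from 6.75 to 74.0 CPM (median 23.4) in FeCon and from 5.74 to 15.3 CPM (median 8.94) in MaCon (log2 difference -1.76, SE 0.33, adjusted p = 0.00244), and Has1, a hyaluronan synthase, from 0.581 to 11.4 CPM (median 2.20) in FeCon and from 0.593 to 1.76 CPM (median 1.13) in MaCon (log2 difference -1.72, SE 0.38, adjusted p = 0.0065). Aspn, asporin, and Vcan, versican, had log2 differences of -0.58 and -0.47 (adjusted p = 0.00196 and 0.0072). Among 42 matrix proteases and inhibitors, 4 passed higher in FeCon and 2 higher in MaCon (background 7.6% and 6.4%). Adamts9, a versican-cleaving protease, was higher in FeCon (log2 difference -1.04, SE 0.21, adjusted p = 0.00361), ranging from 32.2 to 111 CPM (median 68.9) in FeCon and from 21.0 to 43.6 CPM (median 33.1) in MaCon. Ctsl, cathepsin L, was also higher in FeCon (-0.29, adjusted p = 0.0151). Mmp15, a membrane-bound metalloproteinase (0.78, adjusted p = 0.00359), and Adamts16 (1.15, adjusted p = 0.0231) were higher in MaCon.

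Several receptors and mediators of growth factor signalling were higher in FeCon. Of 24 genes of the transforming growth factor beta pathway, 6 passed higher in FeCon and 2 higher in MaCon (background 7.6% and 6.4%). Smad3, a receptor-activated transcription factor of the pathway, ranged from 43.2 to 79.8 CPM (median 70.1) in FeCon and from 29.1 to 59.3 CPM (median 39.2) in MaCon (log2 difference -0.68, SE 0.13, adjusted p = 0.00347). Tgfbr3 and Tgfbr2, receptors, had log2 differences of -0.46 and -0.25 (adjusted p = 0.00209 and 0.0134), and Ski, a repressor of SMAD proteins, one of -0.37 (adjusted p = 0.00739). Of 30 genes of the bone morphogenetic protein and activin pathway, 4 passed higher in FeCon, 1 of them a DEG, and 2 passed higher in MaCon (background 7.6% and 6.4%). Gdf11, a ligand of the activin branch, was higher in MaCon (log2 difference 0.73, SE 0.15, adjusted p = 0.00484). Of 21 Notch pathway genes, 2 passed higher in FeCon and 1 higher in MaCon, beside the same background. Heyl, a Notch target of arterial muscle, was higher in FeCon (log2 difference -0.77, SE 0.15, adjusted p = 0.00343).

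In the insulin-like growth factor axis, 4 of 18 genes passed higher in FeCon and 1 higher in MaCon (background 7.6% and 6.4%). Igf1r, the receptor, ranged from 113 to 212 CPM (median 179) in FeCon and from 69.7 to 130.1 CPM (median 95.2) in MaCon (log2 difference -0.77, SE 0.13, adjusted p = 0.00105). The ligand Igf2 and the binding protein Igfbp3 were higher in FeCon as well (-0.48 and -0.73, adjusted p = 0.00712 and 0.0134). Igfbp2, another binding protein, went the other way and ranged from 36.3 to 128 CPM (median 67.8) in MaCon and from 16.0 to 61.8 CPM (median 30.5) in FeCon (log2 difference 1.07, SE 0.25, adjusted p = 0.01). Of 39 Wnt pathway genes, 6 passed higher in FeCon (background 7.6%), among them the secreted antagonist Frzb (log2 difference -0.70, SE 0.11, adjusted p = 0.000549) and the ligand Wnt11 (log2 difference -0.92, SE 0.21, adjusted p = 0.00736), and 3 passed higher in MaCon (background 6.4%), among them the modulator Sfrp2 (log2 difference 0.65, SE 0.16, adjusted p = 0.0135). Of 37 vasoactive genes 3 passed higher in FeCon and 2 higher in MaCon, and of 32 channel genes 2 and 1, shares near or under the background of 7.6% and 6.4%. The only DEG of these 2 lists was 1 vasoactive gene higher in MaCon (background 0.445%). Nos3, endothelial nitric oxide synthase (-0.55, adjusted p = 0.0312), and Ece1, which activates endothelin (-0.55, adjusted p = 0.00696), were higher in FeCon. Ano1, a calcium-activated chloride channel of arterial muscle, was higher in MaCon (0.48, adjusted p = 0.0153).

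Differences in large gene families were small. All 79 oxidative phosphorylation genes tested had positive log2 differences (0.06 to 0.55, median 0.29), but only 1 passed the adjusted p threshold (background 6.4%). Of 78 mitochondrial ribosomal protein genes, 75 were positive and 9 passed higher in MaCon (background 6.4%), with Mrpl42 at 0.50 (adjusted p = 0.00392). Cytosolic ribosomal protein genes had a median of 0.06 and none of 77 passed. In the other direction, 15 of 76 splicing factor genes passed higher in FeCon (background 7.6%) and none passed higher in MaCon, with 24 positive and 52 negative differences. Sf3b1, a branch-site recognition subunit, had a log2 difference of -0.52 (adjusted p = 0.00389). Of 65 histone modifying enzymes 14 passed higher in FeCon and 3 higher in MaCon, and of 41 autophagy genes 9 and 1. Counts made of such small differences moved with single libraries, as did the counts over all autosomal genes. Over all autosomal genes, the 972 higher in FeCon were 629 without FeCon10 and 1490 without FeCon3. The 819 higher in MaCon were 1323 without FeCon3, 1028 without FeCon7 and 848 without MaCon3. The 15 splicing factors were 7 to 9 without FeCon1, FeCon5, FeCon10, MaCon4, MaCon6, MaCon8 or MaCon10, and 23 without FeCon3. The 14 histone modifying enzymes were 6 to 8 without FeCon1, FeCon5, FeCon10, MaCon6, MaCon7, MaCon9 or MaCon10, and 25 without FeCon3. The 9 mitochondrial ribosomal genes were 31 without FeCon3, 15 without FeCon7 and 17 without MaCon3.

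Across all genes, differences went along with transcript length. The median log2 difference was 0.14 in the genes with the shortest transcripts (3145 genes, up to 2272 bases), 0.04 and -0.03 in the next 3144 genes each, and -0.10 in the 3145 genes with the longest (from 4881 bases). Among the shortest, 9.41% passed higher in MaCon and 2.16% higher in FeCon, and among the longest 3.4% and 12.1%. From the 3146 genes of lowest to the 3145 of highest GC content the median went from -0.04 to 0.07. The part of transcript length in the differences of the gene families was not tested.

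**Figure D4:**
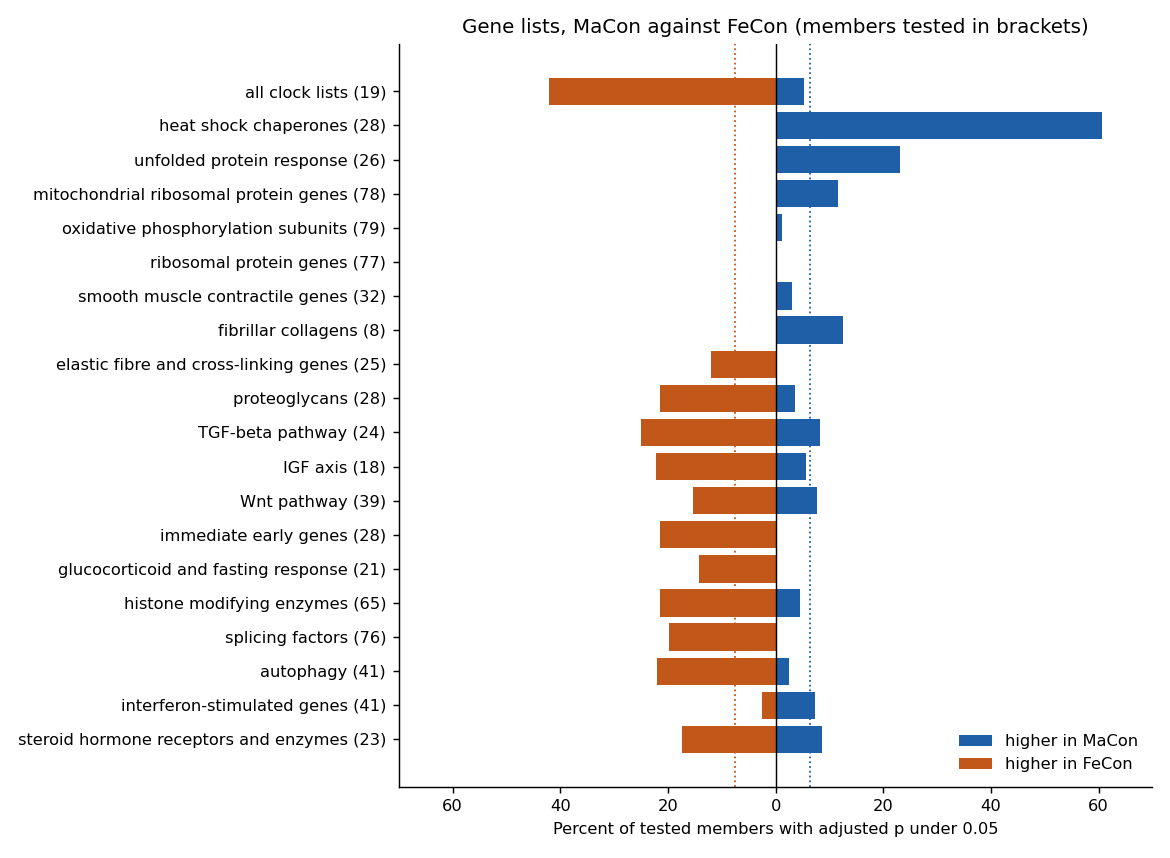
Percent of the tested members of 20 gene lists with an adjusted p below 0.05, higher in MaCon to the right (blue) and higher in FeCon to the left (orange), with dotted lines at the share of all autosomal genes (6.4% and 7.6%). Heat shock chaperones reach furthest to the right and the clock genes furthest to the left, while ribosomal protein genes have no called member.

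Of 23 steroid receptor and enzyme genes tested, none was a DEG, 2 passed higher in MaCon and 4 passed higher in FeCon (background 6.4% and 7.6%). Srd5a1, which makes dihydrotestosterone from testosterone, ranged from 1.87 to 3.54 CPM (median 2.68) in MaCon and from 0.889 to 2.56 CPM (median 1.57) in FeCon (log2 difference 0.82, SE 0.19, adjusted p = 0.00821). Nrip1, a corepressor induced by oestrogen in other tissues, and Stat5b, a mediator of growth hormone, were higher in FeCon (-0.50 and -0.43, adjusted p = 0.0111 and 0.00572). Esr1, the oestrogen receptor alpha gene, named after its values were seen, ranged from 5.52 to 16.7 CPM (median 10.8) in FeCon and from 10.0 to 19.3 CPM (median 13.2) in MaCon (log2 difference 0.42, SE 0.19, adjusted p = 0.123), and its difference did not pass. Dhcr7, the last step of cholesterol synthesis, was higher in MaCon (log2 difference 0.90, SE 0.15, adjusted p = 0.00136).

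Summed markers of the cell types in and around the wall overlapped between groups for all 18 lists, and single genes of some lists passed. Fat markers varied between mice: 31 white fat genes summed to 6109 to 14204 CPM in FeCon and to 3656 to 14419 CPM in MaCon, and 20 brown fat genes to 992 to 3083 CPM and 739 to 3453 CPM. Plin4, a lipid droplet protein, was the only white fat gene that passed (log2 difference -0.75, SE 0.15, adjusted p = 0.0034). Lyve1, a hyaluronan receptor of resident macrophages and lymphatic endothelium, ranged from 42.9 to 95.6 CPM (median 67.1) in FeCon and from 19.0 to 52.3 CPM (median 32.1) in MaCon (log2 difference -0.92, SE 0.18, adjusted p = 0.00261). The 7 lymphatic genes summed to 75.9 to 188.9 CPM in FeCon and to 35.8 to 110.3 CPM in MaCon, and the 16 resident macrophage genes to 1279 to 1817 CPM and 1139 to 1599 CPM. Among 16 adventitial fibroblast genes, Gsn and Lum were higher in FeCon (-0.35 and -0.36, adjusted p = 0.0137 and 0.0287) and 1 gene passed higher in MaCon (background 7.6% and 6.4%), with 8 positive and 8 negative differences. No heart, T-cell, red blood cell, smooth muscle or mesothelial marker passed, yet whole lists lay on one side of 0. All 9 heart genes (median -0.67), all 9 mesothelial genes (-0.40) and all 7 lymphatic genes (-0.75) had negative log2 differences. All 9 T-cell genes (1.80) and all 4 red blood cell genes (0.77) had positive ones. Single libraries stood out in the heart and T-cell sums. The heart sum was 777 CPM in FeCon10 and at most 173 CPM in the other FeCon libraries, and 344 CPM in MaCon6 and at most 107 CPM in the other MaCon libraries. The T-cell sum was 399.6 CPM in MaCon2, at most 49.4 CPM in the other MaCon libraries and at most 46.6 CPM in FeCon. Red blood cell sums ran from 139 to 664 CPM in FeCon and from 202 to 1378 CPM in MaCon. The part of these tissues in the differences between groups was not tested. Of 25 chemokine and cytokine genes, 6 passed higher in FeCon, 2 of them DEGs, and 1, Lif, passed higher in MaCon (background 7.6% and 6.4%). The chemokine Ccl6 and the cytokine Il16 were among the 6 (-0.81 and -0.68, adjusted p = 0.00772 and 0.00529).

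The BAPN groups, which share no library with the controls, were used to ask which of these differences recur. Of the 57 DEGs higher in MaCon, 27 were higher in MaNonAD than in FeNonAD (47.4%) and 29 higher in MaAAD than in FeAAD (50.9%). Of the 92 DEGs higher in FeCon, 42 (45.7%) and 51 (55.4%) kept their direction. Over all 12797 autosomal genes the share with the same direction as in the controls was 61.3% without lesions and 52.1% with lesions. The median log2 difference of the 92 genes was -1.28 in the controls, 0.02 without lesions and -0.04 with lesions, and 2 genes of the 149 passed the adjusted p threshold in the same direction in either group, both between MaAAD and FeAAD, C7 being among them. MaNonAD against FeNonAD gave 2 autosomal DEGs (0.0144% of 13878 genes tested) and MaAAD against FeAAD gave 6 (0.0432%).

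C7 had a positive difference in all 3 treatment groups, which passed in the controls and with lesions. Its log2 difference was 1.22 (SE 0.32) without lesions (adjusted p = 0.4) and 1.50 (SE 0.28) with lesions (adjusted p = 0.0036). Gal3st2 had log2 differences of -1.25 (SE 0.36) and -0.83 (SE 0.28), with adjusted p = 0.648 and 1. P2rx1 was 0.27 (SE 0.25) without lesions and 0.33 (SE 0.21) with lesions (adjusted p = 0.763 and 1), and Cilp was -0.19 (SE 0.32) and -0.09 (SE 0.26) (adjusted p = 0.849 and 1).

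The change in the difference between sexes was tested as an interaction, which uses the control libraries that also chose the DEGs, so the 2 are not independent. Of all autosomal genes, 40 (0.288%) met the DEG rule for NonAD minus Con and 73 (0.526%) for AAD minus Con. The count of 40 depended on the 4 MaNonAD libraries and was 10 without MaNonAD1, 24 without MaNonAD2, 22 without MaNonAD3 and 26 without MaNonAD4. By adjusted p alone, the interaction was passed without lesions by 5 of the 57 DEGs higher in MaCon and 16 of the 92 higher in FeCon (0.396% of all genes tested), and with lesions by 9 and 30 (1.35%). Hspa1b, 2.12 in the controls, was -1.52 (SE 0.66) without lesions and -1.27 (SE 0.53) with lesions (interaction adjusted p = 0.03 and 0.00926). Maff went from -1.65 to 0.06 (SE 0.24) and -0.06 (SE 0.20) (adjusted p = 0.00233 and 0.00192), and Prmt2 from 1.04 to -0.28 (SE 0.18) and -0.28 (SE 0.14) (adjusted p = 0.00224 and 0.000249). Mt2 went from -2.58 to -0.03 (SE 0.67) and 0.68 (SE 0.55), and only the change with lesions passed (adjusted p = 0.149 and 0.0167).

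**Figure D5:**
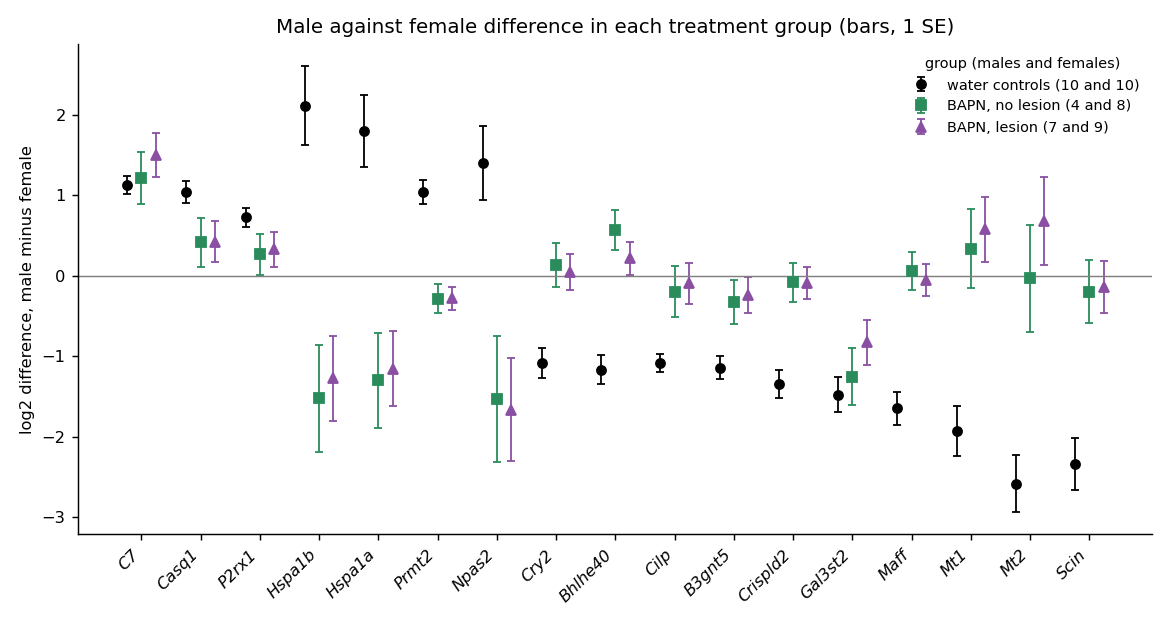
Log2 difference between males and females (points, with bars of 1 SE) for 17 genes in water controls (10 males and 10 females, black circles), BAPN mice without lesions (4 and 8, green squares) and BAPN mice with lesions (7 and 9, purple triangles). C7 stays above 1 in all 3 groups, Hspa1a and Hspa1b change sign, and Maff, Mt1, Mt2 and Scin lie near or above 0 in at least 1 BAPN group.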

How the data were processed

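Strand-specific mRNA libraries from 48 thoracic aortas, 1 per mouse, were sequenced on a DNA nanoball platform. The deposited table holds expected counts, which the authors estimated per gene with RSEM 1.3.1 on Bowtie2 alignments to GRCm39, as the submitters' processing notes name them. RSEM divides reads that match several genes, so near-identical genes are uncertain. In the 20 control libraries 4.93% of values were not whole, and all were rounded before testing. No column of per-sample values was left unused.

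Of 18782 genes, 17904 were autosomal, 610 of all being placed by RefSeq symbol or synonym. After edgeR's filterByExpr, 13293 genes were tested in R 4.3.3 with edgeR 4.0.16 (TMM scaling, robust quasi-likelihood F-test, Benjamini-Hochberg adjustment over all genes tested), and 443 X or Y genes and 53 unplaced genes were then left out. Levels are CPM on TMM-scaled library sizes. Interactions and the BAPN groups were fitted on all 48 libraries in 6 groups. Distances were Bray–Curtis on log2(CPM + 1), with an exact permutation test. DESeq2 1.42.0, other scalings and filters, a block for the replicate number, and fits without each library in turn were alternatives, and the Arntl and Dbp covariates were added after the data had been seen. The edgeR step and the permutation test were tested on simulated data. Depth per library, 13548015 to 16314527 counts, bounds precision for genes of a few CPM, and p-values measure the spread between mice as labelled.

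The gene lists, members and rules were chosen with earlier results of these data known. Genes were named as the 12 largest DEGs in each direction averaging at least 10 counts per library, all clock genes, up to 4 members of each other list with the lowest adjusted p under 0.05, and, for tissue lists, also the 3 most abundant. A few genes that these rules name are not reported here. Other genes are said to be named after their values were seen. Promoter sequences came from RefSeq on GRCm38.p6, not the build of the counts, and 10174 of 12797 autosomal genes tested had one.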

Additional observations from a re-analysis of the deposited data

Results flagged for a closer look

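In 19 of 236 groups of 10 control libraries, 1 library stood apart from the others by Dixon's test at the 95% level, which chance alone does in about 1 in 20 groups. MaCon5 held 8 of them: in CPM, it was lowest in MaCon for Arntl (1.54), Npas2 (3.68), Clock (21.4) and Adgrb1 (1.27), and highest for Per1 (227), Per3 (164), Ciart (46.6) and Hlf (78.2). FeCon2 held 7, all as the lowest FeCon library: Ciart (1.49), Bhlhe40 (36.5), Mt1 (155), Mt2 (54.7), Maff (24.3), Wdr92 (19.4) and Zbtb8b (25.7). FeCon3 was lowest for Clock (22.8) and Tgfbr3 (91.6), MaCon2 was highest for Carmil2 (33.1), and MaCon6 was highest for Nnat (21.9).

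The difference between males and females changed from the controls to BAPN mice for 55 autosomal genes without lesions and 188 with lesions, tested as an interaction (edgeR, adjusted p below 0.05). These are 0.396% and 1.35% of the genes tested. Of 118 genes named in the text, 11 passed without lesions and 24 with lesions, and the 11 were all among the 24. Most of the 118 were named for their difference between the controls, which the interaction uses again, so these counts are no independent result. For genes higher in MaCon, the log2 changes without and with lesions were -3.64 and -3.39 for Hspa1b, -3.09 and -2.95 for Hspa1a, -1.22 and -1.26 for Ahsa2, and -1.33 and -1.32 for Prmt2. For genes higher in FeCon they were 1.74 and 1.38 for Bhlhe40, 1.70 and 1.59 for Maff, 1.26 and 1.25 for Crispld2, 0.84 and 0.79 for Ece1, 2.14 and 2.20 for Scin, 2.56 and 2.28 for Cpm, and 2.44 and 1.87 for Wdr92. With lesions alone the test was passed by Npas2 (-3.07), Fkbp4 (-0.73), Bloc1s5 (-0.64), Mmp15 (-0.94) and Dhcr7 (-0.91), higher in MaCon among the controls. It was passed as well by Cry2 (1.13), Mt1 (2.50), Mt2 (3.25), Gclc (0.81), Wnt11 (1.26), Il16 (0.72), Aipl1 (2.03) and Vwce (2.51), higher in FeCon among the controls. Whether a change differed between mice without and with lesions was not tested.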

How the results depend on the processing

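The count of 149 DEGs (57 higher in MaCon and 92 higher in FeCon) was 251 with DESeq2 (96 and 155), 260 without the filter on low counts (89 and 171), 1791 by adjusted p alone (819 and 972), and 8 with the Arntl and Dbp covariates (2 and 6), which left 14 genes by adjusted p alone (4 and 10). The fit on all 48 libraries gave 207 DEGs (88 and 119). Leaving out 1 control library gave 126 to 193 DEGs, 43 to 71 higher in MaCon and 80 to 122 higher in FeCon. By adjusted p alone, 1166 genes were called without FeCon1, 2813 without FeCon3, 1177 without FeCon5, 1128 without FeCon10 and 1189 without MaCon6. R2 ran from 15.9% to 20.6% with 1 library left out and was 15.4% on CPM without the log (exact permutation p = 0.00966). The interaction counts with DESeq2 were 86 (NonAD) and 121 (AAD) in place of 40 and 73, and without 1 MaNonAD library the first was 10 to 26. Of 105 named genes with an adjusted p below 0.05, none changed direction in the 8 planned settings or the 20 fits that left out 1 library, but the call was lost in 36 of their results under the planned settings (804 kept it) and in 85 with 1 library left out (2015 kept it). Besides the genes already named as such, Loxl3 was called in 10 of those 20 fits, Nos3 and Col27a1 in 13, Ramp1 and Lum in 16 and Lcn2 in 19. With the Arntl and Dbp covariates, values that changed sign were Hspa1a -0.0039, Clock -0.18, Per3 0.0418, Cry1 -0.44, Nfil3 -0.13, Tagln 0.0809 and Myh11 0.0086. Arntl (-0.0193) and Dbp (0.0156) are close to 0 by construction, each being fitted on its own level. Cry1 and Tagln, close to 0, also changed sign with 1 library left out (Cry1 -0.0672 to 0.1277, Tagln -0.1383 to 0.0399). The causes of the other changes were not tested.

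The replicate numbers do not pair the samples. Deviations of same-numbered libraries had correlations of -0.388 to 0.323, over 0.1 in 2 of 10 pairs, and no FeCon library correlated best with its own number. With the replicate block there were 116 DEGs (43 and 73), 111 of them among the 149, and by adjusted p alone 459 genes were higher in MaCon and 451 higher in FeCon; R2 stayed 17.3% (p = 0.00781 over 1024 exchanges, exact permutation test) and Cry1 was -0.0383. With the block Hspa1a (1.14), Hspa1b (1.37) and Carmil2 (1.06) were no longer called, Ciart (-2.58) was, and Dbp was -2.56.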
